A study of Mus musculus with 10 samples.

Results

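Mouse embryonic stem cells without DNMT3B were compared with wild-type J1 cells across all genes measured. The comparison was made up of the arrays whose titles name the Dnmt3b knockout or J1 alone, which were 4 of the 10 one-colour Agilent arrays of the series, 2 of each line. J1 carries the genotype wild-type in the labels and is used here as the parental line. The knockout is line 8bb with the genotype Dnmt3b-/-. Both were cultured feeder-free with serum and leukaemia inhibitory factor, and the labels name no transgene for either. The series set out to learn how demethylation driven by excess PRDM14 alters transcription, and the knockout is one of its reference lines. The remaining 6 arrays came from wild-type cells stably expressing Prdm14 (2 arrays), from such cells that also express Dnmt3b1 (2 arrays), from Dnmt1-/- cells (1 array) and from a triple knockout lacking Dnmt1, Dnmt3a and Dnmt3b (1 array). Each group was a single cell line, so a difference between Dnmt3b-/- and J1 cells cannot be told apart from any other difference between these lines. Separate cultures are not stated for the replicate arrays, so the p-values cover the array-to-array spread alone, and that spread may be technical.

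DNMT3B is a de novo DNA methyltransferase: it adds methyl groups to CpG sites that carry none, whereas DNMT1 copies existing methylation after replication. DNMT3A has an overlapping de novo activity, and DNMT3L is a catalytically inactive cofactor of both. In embryonic stem cells grown in serum, methylation covers most CpG sites outside CpG islands, and it is known for holding germline genes, imprinted alleles and X-linked Rhox genes silent. DNA methylation itself was not measured on these arrays.

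Levels below are log2 fluorescence intensities minus the 75th percentile of their array, so a difference of 1 log2 unit is a 2-fold difference, and differences are Dnmt3b-/- minus J1. The share of spots well above background was 54.35% and 49.96% on the J1 arrays and 51.14% and 54.11% on the Dnmt3b-/- arrays, and precision is limited by how few arrays there were. Of 10 embryonic stem cell markers, all were well above background on the 4 arrays. Their summed linear level was 1150 and 1050 in J1 and 1180 and 1090 in Dnmt3b-/- cells, in units of the 75th percentile. Dppa5a, at 9.44 and 9.15 in J1 and at 9.45 and 9.25 in the knockout, weighed most in that sum. Pou5f1, the stem cell factor OCT4, was at 5.99 and 5.996 in J1 and at 5.79 and 5.99 in the knockout. Esrrb, an orphan nuclear receptor of naive cells, rose by 0.75 and Tdgf1, a NODAL co-receptor, by 0.68, and the other 8 markers did not pass the test. The J1 arrays stood apart from the rest of the series. Both lay outside the range of the other 8 arrays in 18.2% of the genes tested, against 8.53% for the Dnmt3b-/- arrays. The levels on the other 6 arrays are therefore given beside some of the single genes below. Where they are not given, a difference does not show which of the lines stood apart.

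The targeted gene was low in every Dnmt3b-/- array. On the Dnmt3b probe that represented the gene (mm9 chr2:153513403-153513462), the J1 arrays were at 7.61 and 7.57 and the Dnmt3b-/- arrays at 1.63 and 1.70. The groups did not overlap, and the J1 arrays were close to the Dnmt1-/- array at 7.66. The loss was 5.93 log2 units (SE 0.08, 2 arrays each), or 60.9-fold (limma, adjusted p = 2.23e-05). The other probes gave the same picture. The probe at chr2:153512098-153512157 read 5.81 and 5.88 in J1 and -0.06 and -0.11 in the knockout, and that at chr2:153512991-153513050 read 5.76 and 5.56 in J1 and -0.30 and -0.38 in the knockout. All 3 probes remained well above background in the Dnmt3b-/- cells. They start at bases 2950, 3843 and 4255 of the transcript, and which exons line 8bb lacks was not given in the labels.

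**Figure D1:**
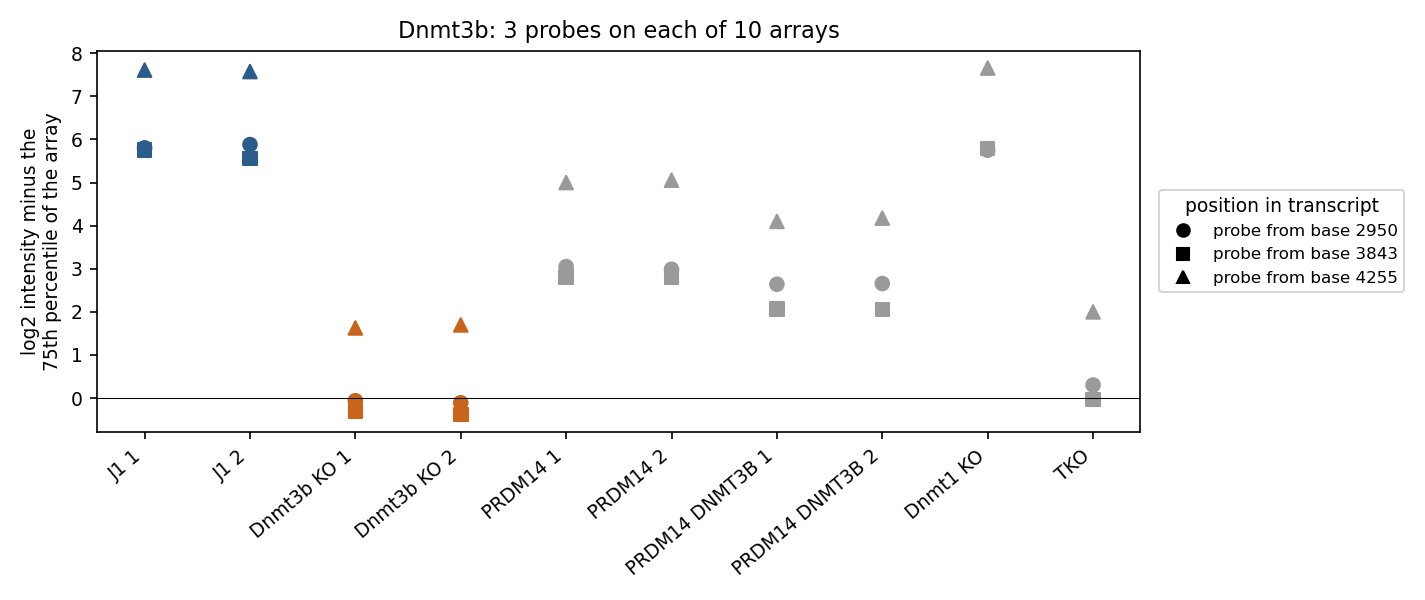
Level of Dnmt3b (log2 intensity minus the 75th percentile of the array, y axis) on each of the 10 arrays (x axis) for 3 probes, marked by shape, with J1 in blue, Dnmt3b-/- in orange and the other lines in grey. The Dnmt3b-/- arrays lie at -0.38 to 1.70 and the J1 arrays at 5.56 to 7.61.

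Apart from Dnmt3b, changes in the DNA methylation machinery were of at most 1.09 log2 units. Across 17 measured genes of the list, 3 were higher and 3 lower, Dnmt3b among the latter, with a median difference of 0.04 log2 units. Over all 23811 genes tested, 10.8% were called higher and 10.1% lower, and the median difference was -0.10. These shares are the background for each list count below. Dnmt3a was at -0.17 and -0.33 in J1 and at 0.24 and 0.26 in the knockout. Both knockout arrays were higher than both J1 arrays, a rise of 0.50 (SE 0.10, limma adjusted p = 0.0186). Dnmt3l was at 6.66 and 6.54 in J1 and at 5.95 and 5.90 in the knockout, and it fell by 0.67 (SE 0.09, limma adjusted p = 0.00622). Dppa3, a maternal factor that keeps UHRF1 from chromatin, was at 1.92 and 2.12 in J1 and at 0.81 and 1.04 in the knockout. It fell by 1.09 (SE 0.14, limma adjusted p = 0.00508), and its level on the other 6 arrays was 2.48 to 3.34, so the knockout arrays were the lowest of the series. Trdmt1, an RNA methyltransferase of the DNMT family, rose by 0.64. Nsd1, an H3K36 methyltransferase, rose by 0.38 on its brightest probe, but the mean over its probes gave -0.03. Dnmt1 (1.63 and 1.30 against 1.67 and 1.43) and its partner Uhrf1 (5.95 and 5.93 against 6.08 and 5.99) did not pass (limma adjusted p = 0.741 and 0.457). With each of the 4 arrays left out in turn, 3 members were lower, and 2 were higher without J1 replicate 1, 1 without J1 replicate 2 and 0 without either Dnmt3b-/- array.

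Among all genes, 4973 of 23811 (20.9%) differed between Dnmt3b-/- and J1 cells at a limma adjusted p under 0.05, 2561 higher and 2412 lower. Of these, 881 were higher and 554 lower by more than 2-fold, and 176 and 83 by more than 4-fold. With the genes ordered by their J1 level and divided into 4 bins of like size, 406 rose and 161 fell by more than 2-fold in the dimmest bin, and 49 rose and 76 fell in the brightest. The J1 level is itself a term of the difference, so this ordering favours rises among dim genes and falls among bright ones. The filter adds to it, since probes dim in J1 stayed only if another group had them above background. No conclusion is drawn from these bins. The arrays of the lines did not overlap in 59.6% of the genes tested, so a lack of overlap is common here and says little about a single gene. The median standard error was 0.15 log2 units. In simulated arrays with this design, 58 of 100 genes changed by 1 log2 unit and 84 of 100 changed by 2 were recovered. False calls among the unchanged genes numbered 4. The simulation left all other genes unchanged and gave each array independent noise. Far more genes were called here, and same-numbered arrays shared a trend, so these rates do not carry over to this comparison. The fit takes its spread from the 4 groups with 2 arrays. The 4 arrays alone gave 1867 calls, and those 4 with the replicate number as a block, which leaves 1 residual degree of freedom, gave 0 (limma, smallest adjusted p = 0.0608, with 9380 genes at an unadjusted p under 0.05). Leaving out 1 array gave 3357 calls without J1 replicate 1, 2988 without J1 replicate 2, 2425 without Dnmt3b-/- replicate 1 and 2455 without Dnmt3b-/- replicate 2. Centring arrays on their median instead moved the median difference from -0.10 to 0.01 and made 68.12% of the calls rises, against 51.5% here. The balance also turned the other way: rises were 44.45% of the calls with normexp background correction, 46.09% with slide as a block over 10 arrays, 46.92% over probes that passed the background flag on all 10 arrays and 48.96% with the mean over probes.

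**Figure D2:**
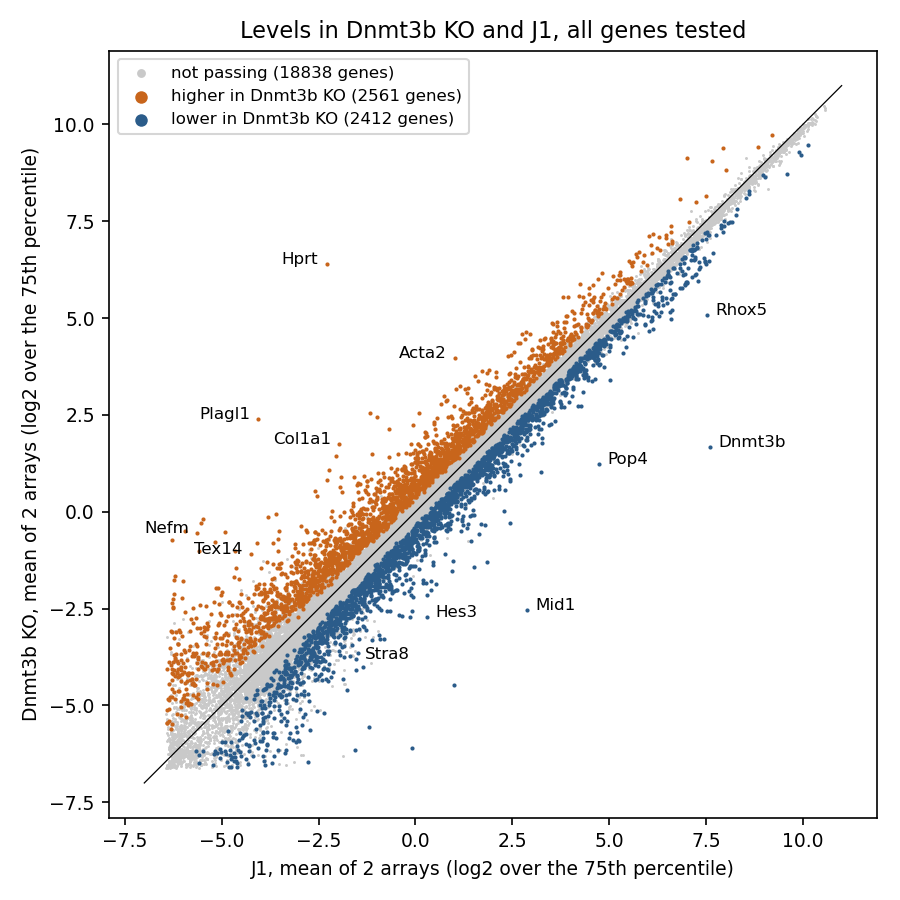
Mean level of each of 23811 genes in Dnmt3b-/- cells (y axis) against J1 (x axis), both in log2 units over the 75th percentile of the array and over 2 arrays, with genes called higher in orange, lower in blue and the rest in grey. The line marks equal levels. Hprt and Dnmt3b lie farthest from it among the labelled genes above background in both lines.

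Of the called genes that differed over 2-fold, 756 (52.68%) had both J1 arrays outside the range of all other arrays, 357 (24.88%) had both Dnmt3b-/- arrays outside it, and 402 had neither. The largest differences followed this division. Hprt, the purine salvage enzyme, was at -2.34 and -2.25 in J1 and at 6.28 and 6.49 in the knockout. The other 6 arrays lay at 5.81 to 6.57, so J1 was the line that differed. The difference was 8.68 log2 units (SE 0.15, limma adjusted p = 3.73e-05). Mid1, an X-linked ubiquitin ligase of microtubules, was at 2.90 and 2.84 in J1 and at -2.50 and -2.59 in the knockout, a fall of 5.42 (SE 0.25, limma adjusted p = 0.000648). Pop4, a subunit of the RNase P and MRP ribonucleases, was at 4.72 and 4.77 in J1 and at 1.13 and 1.35 in the knockout, and it fell by 3.51 (SE 0.11, limma adjusted p = 0.000188). On the other 6 arrays Mid1 was at -5.92 to -2.13 and Pop4 at 1.09 to 1.51, and only the J1 arrays stood high.

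Among the 12 genes above background on all 4 arrays that rose most, the J1 arrays were outside the range of all others in 6, the Dnmt3b-/- arrays in 5 and neither in 4, some genes being in both counts. Col1a1, a chain of type I collagen, was at -2.04 and -1.90 in J1 and at 1.74 and 1.73 in the knockout, with -4.38 to 0.50 on the other 6 arrays. Both knockout arrays were the highest of the series, and the rise was 3.71 (SE 0.09, limma adjusted p = 0.000188). Its partner chain Col1a2 was at -1.89 and -2.20 in J1 and at 1.43 and 1.42 in the knockout, a rise of 3.47 (SE 0.34, limma adjusted p = 0.00248). A further 8 of the 12 rose by 2.81 to 3.44. They include the matrix genes Fbln2, which encodes fibulin-2, and Ltbp2, a latent TGF-beta binding protein, the smooth muscle actin gene Acta2, the secreted phospholipase gene Pla2g5, and Ephx2, an epoxide hydrolase on chromosome 14. The others are the surface glycoprotein gene Cd99, the carbohydrate kinase gene Fggy and the zinc finger gene Zfp629.

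Some genes crossed the background limit. In all, 180 genes were above background on both Dnmt3b-/- arrays and on neither J1 array and were called higher, of 276 with that pattern, and 83 of 161 with the reverse pattern were called lower. Being above background in 1 line was enough to pass the filter, and the pattern itself sets the direction of a call. The shares over all genes, 10.8% higher and 10.1% lower, are therefore not a like comparison, and no conclusion is drawn from these counts. For such genes the fold is set against the lowest signal well above background, or against the probe's own dim signal where that was larger. Where the first applies, the fold is a lower bound. Cavin2, a caveolar coat protein, was at -4.92 and -6.16 in J1 and at -0.34 and -0.26 in the knockout, at least 14.3-fold higher (limma adjusted p = 0.00679). The chemokine Ccl2 was at -4.46 and -5.36 in J1 and at -0.54 and -0.52 in the knockout, at least 12.2-fold higher, and the chemokine Ccl7 was at least 5.64-fold higher. Both chemokines were thus detected in the knockout and not in J1. Nefm, a neurofilament subunit encoded on chromosome 14, was at least 12.1-fold higher and Cck, the hormone cholecystokinin, at least 8.68-fold higher, though Cck lost its call without J1 replicate 2 or either Dnmt3b-/- array. In the other direction, Gm10741 was at least 4.06-fold lower and the protease inhibitor Wfdc15a at least 3.63-fold lower. Gm10741 lost its call without J1 replicate 2.

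Among the 12 largest falls, the J1 arrays were outside the range of all others in 7, the Dnmt3b-/- arrays in 5 and neither in 1. Hes3, a bHLH repressor of the Hes family, was at 0.30 and 0.30 in J1 and at -2.92 and -2.50 in the knockout, a fall of 3.02 (SE 0.16, limma adjusted p = 0.000732). Slc39a8, a zinc and manganese transporter, was at 2.33 and 2.54 in J1 and at -0.42 and -0.19 in the knockout and fell by 2.74 (SE 0.18, limma adjusted p = 0.00103). In both genes J1 was above every other line. Arl14epl went the other way within the series. It was at 1.45 and 1.56 in J1 and at -1.45 and -1.38 in the knockout, which were the lowest arrays of all, and it fell by 2.92 (SE 0.09, limma adjusted p = 0.000188). Tlr2, an innate immune receptor, fell by 2.47, Il4i1, an amino acid oxidase, by 2.42, and Mc3r, a melanocortin receptor, by 2.33.

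Genes of fibroblasts and of the extracellular matrix were higher in the knockout. Fibroblasts build matrix from type I and III collagen and carry contractile actin, and they were on the list because such cells could be present in a culture. Of 22 fibroblast genes measured, 13 were higher, 0 lower and 9 did not pass, with a median difference of 0.97 log2 units against -0.10 over all genes (0.54 with normexp). Vim, the mesenchymal intermediate filament, was at 3.90 and 3.99 in J1 and at 5.52 and 5.55 in the knockout, a rise of 1.59 (SE 0.10, limma adjusted p = 0.000892). Acta2 was at 1.02 and 1.00 in J1 and at 3.96 and 3.997 in the knockout and rose by 2.97 (SE 0.08, limma adjusted p = 0.000188). Lox, which cross-links collagen, was not above background in J1 and was at least 2.06-fold higher in the knockout. In each of these the knockout arrays were clear of both J1 arrays. The summed linear level of the list was 146 and 150 in J1, 338 and 319 in the knockout and 80.1 to 255 on the other 6 arrays. Tagln, the brightest member in J1 and in the knockout, rose by 1.10 and weighed most in the sums of these lines. The defining fibroblast genes did not move together. Col3a1, the chain of type III collagen, was at -3.34 and -2.33 in J1 and at -2.86 and -2.84 in the knockout, and Dcn, the proteoglycan decorin, was at -0.97 and -1.21 in J1 and at -1.93 and -1.67 in the knockout. Col3a1, Dcn, Thy1, Mmp2 and Twist1 were above background on all 4 arrays and did not pass. The part of fibroblast-like cells in these differences was not tested, and in whole cultures more cells of a type and more RNA per cell cannot be told apart.

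Of 24 collagen and matrix genes, 8 of which are also on the fibroblast list, 12 were higher and 0 lower, with a median of 0.44. Col5a1, of fibrillar type V collagen, was at -0.57 and -0.99 in J1 and at 0.36 and 0.19 in the knockout, a rise of 1.05 (SE 0.17, limma adjusted p = 0.0102). Col12a1, a collagen that decorates fibrils, was at least 1.49-fold higher. With normexp its difference of 2.41 became 0.17, which did not pass (limma adjusted p = 0.353), so its bound depends on the background correction. Basement membrane collagen genes Col4a1 and Col4a2 rose by 0.91 and 1.05. Col4a2 lost its call with slide as a block over 10 arrays (limma adjusted p = 0.0655). It also lost its call without J1 replicate 2 (difference 0.909) and without Dnmt3b-/- replicate 1 (1.008) or 2 (1.095). With each of the 4 arrays left out in turn, 13 to 14 fibroblast genes were higher. The matrix count was 8 without either J1 array, 6 without either Dnmt3b-/- array and 5 in a fit of the 4 arrays alone.

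Members of Nodal and TGF-beta signalling were higher, and none passed as lower. NODAL, activin and TGF-beta ligands signal through SMAD2 and SMAD3, and the Lefty proteins are secreted inhibitors that the pathway induces. Of 21 genes measured, 12 were higher and 0 lower, with a median of 0.68. Among the ligands, Inhba, the activin A subunit, was at -3.72 and -3.88 in J1, where 1 array was above background, and at -0.22 and -0.04 in the knockout. The difference was 3.67 (SE 0.11, limma adjusted p = 0.000188). Nodal rose by 0.57, Tgfb2 by 1.57 and Tgfb3 by 1.54. Among targets and inhibitors, Lefty2 was at 1.58 and 1.51 in J1 and at 3.47 and 3.56 in the knockout, a rise of 1.97 (SE 0.09, limma adjusted p = 0.00066). Levels of Lefty2 on the other 6 arrays ran from -0.25 to 4.79, wider than the gap between J1 and the knockout. Smad7, an inhibitory SMAD, was among the 9 that did not pass. The count of higher members was 9 without J1 replicate 1 and 7 without any one of the other 3 arrays.

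**Figure D3:**
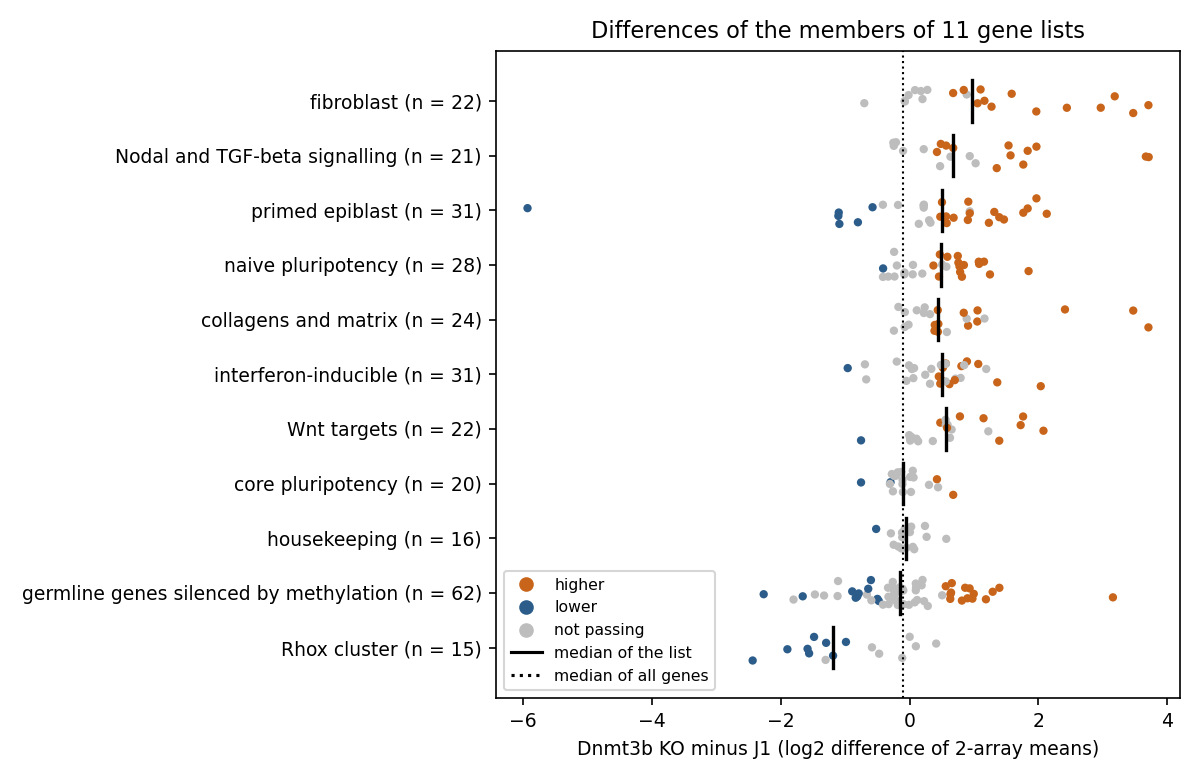
Difference between Dnmt3b-/- and J1 cells (log2 units, x axis) for each measured member of 11 gene lists (y axis), with genes called higher in orange, lower in blue and not passing in grey, a black bar at the median of the list and a dotted line at the median of all genes, -0.10. The fibroblast median is 0.97 and the Rhox median -1.19, or 0.54 and -0.42 with normexp background correction.

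Genes of the primed epiblast, the later pluripotent state after implantation, went in both directions. Of 31 measured, 16 were higher and 6 lower, with a median of 0.50, against 10.8% higher and 10.1% lower over all genes. The rises included Foxa2, an endoderm factor, at -3.35 and -3.58 in J1 with 1 array above background and at -1.53 and -1.14 in the knockout, a difference of 2.13 (SE 0.31, limma adjusted p = 0.00765). Eomes, a T-box factor, rose by 0.93, the growth factor Fgf8 by 1.31 and Otx2, a homeobox factor encoded on chromosome 14, by 0.90. The falls were Dnmt3b itself, Zic5, Sfrp2, Ascl2, Zic2 and Pou3f1, and the last 5 fell by 0.57 to 1.10. Zic2 and Zic5 are neighbours near the end of chromosome 14, and Fgf5, a standard primed marker, did not pass (0.32). Of the higher members, 4 are also on the Nodal list.

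Targets and ligands of WNT signalling gave 8 higher and 1 lower of 22, with a median of 0.57 (0.19 with normexp). The shares over all genes were 10.8% and 10.1%. Sp5, a direct target of beta-catenin, was at 1.73 and 1.51 in J1 and at 3.35 and 3.41 in the knockout, a rise of 1.76 (SE 0.11, limma adjusted p = 0.000977). T, which encodes Brachyury, a driver of mesoderm, was at 0.13 and 0.24 in J1 and at 1.48 and 1.68 in the knockout and rose by 1.39 (SE 0.18, limma adjusted p = 0.00562). Cdx1, a caudal homeobox factor, rose by 1.72, from -1.34 and -1.41 to 0.24 and 0.45. For T and Cdx1 the knockout arrays were above all other arrays of the series, where T reached 0.12 and Cdx1 -1.27. Tcf7l1, a repressor of WNT targets encoded on chromosome 6, was the member called lower, by 0.75 (limma adjusted p = 0.0224). It lost that call without J1 replicate 2 (adjusted p = 0.087), without Dnmt3b-/- replicate 1 (0.105) or 2 (0.0507), with the 4 arrays alone (0.0852), with median centring (0.0993) and with no filter on dim probes (0.0538). Axin2, the feedback inhibitor, did not pass (0.63). Without J1 replicate 1 the count of higher members was 5.

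Among naive pluripotency genes 15 of 28 were higher, and among 20 core factors 2 were higher and 2 lower. The naive state is that of the embryo before implantation, held by LIF. Of the naive genes 1 was lower and 12 did not pass, with a median of 0.49. Over all genes 10.8% were higher and 10.1% lower. Tbx3, a T-box factor of self-renewal, was at 1.33 and 1.38 in J1 and at 3.17 and 3.23 in the knockout, a rise of 1.85 (SE 0.12, limma adjusted p = 0.0011). Prdm14, the factor overexpressed elsewhere in the series, was at -0.07 and 0.09 in J1 and at 1.19 and 1.15 in the knockout, and Manba, a lysosomal mannosidase used as a naive marker, rose by 1.08. Tdh, threonine dehydrogenase, lies on chromosome 14 and rose by 1.25. Klf4, Klf2, Nr5a2 and Tfcp2l1, transcription factors of the naive network, rose by 0.77 to 0.84. Socs3, a feedback inhibitor of LIF signalling, was the 1 member that fell (0.41 lower). Nanog (5.92 and 5.95 against 6.16 and 6.10) and Zfp42 (6.12 and 6.21 against 5.99 and 5.96) did not pass. Of 20 core pluripotency genes, 2 were higher and 2 lower, with a median of -0.11, near that of all genes. The naive count was 9 with the 4 arrays alone, and with 1 array left out it was 10 to 12 higher and 0 lower. No core member was called higher or lower without J1 replicate 2 or either Dnmt3b-/- array.

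Germline genes that methylation is known to silence went in both directions. Of 62 measured, 15 were higher and 10 lower, 24.2% and 16.1%, against 10.8% and 10.1% of all genes, and the median difference was -0.15. The balance of the count turned with the processing: with normexp 9 were higher and 15 lower, and over probes that passed the background flag on all 10 arrays the counts were 12 and 13 of 42. Leaving out 1 array gave 10 higher and 7 lower without J1 replicate 1, 14 and 7 without J1 replicate 2, 11 and 5 without Dnmt3b-/- replicate 1 and 8 and 6 without Dnmt3b-/- replicate 2, and the 4 arrays alone gave 5 and 4. Of the 62, 12 were above background on no array of either line. In every gene called higher except Gpat2 and Tdrd5, both J1 arrays were below all other arrays of the series. In those exceptions neither line stood apart. Among the falls, the knockout arrays were the lowest in Mageb4, Mov10l1, Stra8, Syce1, Tex101 and Tex19.1. The J1 arrays were the highest in Sycp3, and neither line stood apart in the rest. Tex14, which builds the bridges between germ cells, was not above background in J1 (-4.25 and -4.26) and stood at -1.10 and -1.11 in the knockout, at least 7.86-fold higher (limma adjusted p = 0.000188). It was at -1.06 to 1.80 on the other 6 arrays, so J1 was the lowest line. Rec8, a meiotic cohesin subunit, was at 0.01 and -0.17 in J1 and at 1.13 and 1.08 in the knockout, a rise of 1.19 (SE 0.10, limma adjusted p = 0.0016), and Piwil2, of the piRNA pathway, rose by 1.00. Both lie in a stretch of chromosome 14 described below. Rpl10l, a testis copy of a ribosomal protein gene, was at 3.47 and 3.53 in J1 and at 4.44 and 4.51 in the knockout and rose by 0.98 (SE 0.11, limma adjusted p = 0.00393). Tdrkh, a tudor protein of the piRNA pathway, passed (limma adjusted p = 0.0438) but was above background on only 1 of the 4 arrays. It lost its call with any 1 array left out (adjusted p = 0.0605 to 0.176), and its difference of 1.39 became 0.0096 with normexp, so no rise is read from it. Stra8, which drives entry into meiosis, went down instead, from -1.69 and -1.37 in J1 to -3.62 and -3.96 in the knockout. The fall was 2.26 (SE 0.16, limma adjusted p = 0.00112), and the knockout arrays were the lowest of the series. Other falls were those of Tex19.1, a germ cell and placenta gene (0.84 lower), and Sycp3, of the synaptonemal complex (0.79 lower).

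The Rhox genes, a family of homeobox genes clustered on the X chromosome and expressed in the reproductive tract and placenta, were lower. Of 15 measured, 0 were higher and 8 lower, and the median difference was -1.19, or -0.42 with normexp, which left the count at 8 lower. Rhox5, the founding member, was at 7.62 and 7.41 in J1 and at 5.17 and 4.996 in the knockout, with 5.198 to 6.70 on the other 6 arrays. The J1 arrays were the highest and the knockout arrays the lowest of the series, and the fall was 2.44 (SE 0.12, limma adjusted p = 0.000718). Rhox6 was at 2.54 and 2.34 in J1 and at 0.94 and 0.78 in the knockout and fell by 1.58 (SE 0.16, limma adjusted p = 0.0028). Rhox13 was at 1.30 and 1.16 in J1 and at -0.27 and -0.39 in the knockout, a fall of 1.56 (SE 0.10, limma adjusted p = 0.000947). Rhox9 fell by 1.29, from 3.06 and 3.07 to 1.82 and 1.72, and Rhox10 fell by 0.99. The 5 genes just named were above background on all 4 arrays. Rhox2h was above background in J1 alone and was 2.79-fold lower in the knockout. Its dim knockout signal was not below the lowest signal well above background, so this fold is a plain estimate and not a bound. The summed linear level of the cluster was 251 and 225 in J1, 69.2 and 65.9 in the knockout and 80.1 to 223 on the other 6 arrays. Rhox5, the brightest member in J1 and in the knockout, weighed most in the sums of these lines. With 1 array left out, 5 to 8 members were lower, 5 without J1 replicate 1 (where 1 was called higher) and 5 without Dnmt3b-/- replicate 2. Near-identical Rhox copies may share probe signal.

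**Figure D4:**
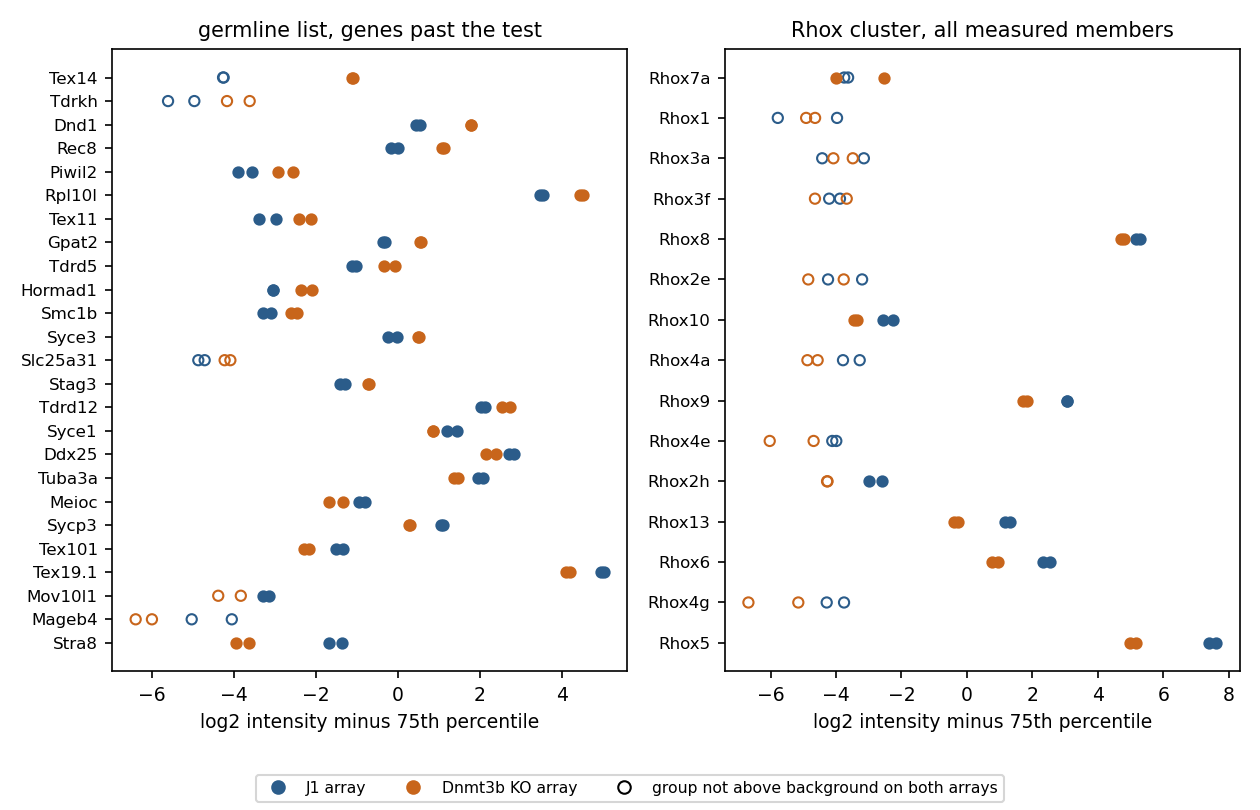
Level on each J1 array (blue) and each Dnmt3b-/- array (orange), in log2 intensity minus the 75th percentile of the array (x axis), for the germline genes that passed the test (left) and all measured Rhox genes (right), one gene a row. Open circles mark a line in which the gene was not above background on both arrays. The Rhox genes at the bottom of the panel lie to the left in Dnmt3b-/- cells, while the germline genes lie to either side.

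The sequences before the start sites of these genes show how many CpG sites, the substrate of DNMT3B, lie there. The 200 bases before the annotated start are printed for 4 germline genes with a single window in the RefSeq table. These are listed by their fitted rise but are not the 4 largest rises of the germline list, and Tdrkh has the weak call given above. The same bases are printed for 3 Rhox genes that fell, chosen after their values were seen. CpG sites are in capitals, the strand is that of the gene, and coordinates are of GRCm38.p6, unlike the mm9 coordinates of the probes.
Tex14, chr11:87404865-87405064, plus strand, 16 CpG: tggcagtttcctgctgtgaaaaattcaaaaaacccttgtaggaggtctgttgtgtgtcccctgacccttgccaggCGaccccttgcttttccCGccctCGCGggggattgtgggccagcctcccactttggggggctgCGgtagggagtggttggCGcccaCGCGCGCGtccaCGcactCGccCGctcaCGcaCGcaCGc
Tdrkh, chr3:94413044-94413243, plus strand, 18 CpG: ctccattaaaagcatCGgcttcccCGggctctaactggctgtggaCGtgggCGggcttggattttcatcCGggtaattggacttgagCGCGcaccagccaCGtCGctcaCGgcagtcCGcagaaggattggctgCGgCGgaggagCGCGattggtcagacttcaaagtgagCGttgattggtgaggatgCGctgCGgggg
Rec8, chr14:55617966-55618165, plus strand, 8 CpG: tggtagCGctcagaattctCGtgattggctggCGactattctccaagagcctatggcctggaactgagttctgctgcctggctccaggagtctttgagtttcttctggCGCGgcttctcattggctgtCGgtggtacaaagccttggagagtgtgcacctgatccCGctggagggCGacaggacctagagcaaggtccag
Rpl10l, chr12:66284402-66284601, minus strand, 6 CpG: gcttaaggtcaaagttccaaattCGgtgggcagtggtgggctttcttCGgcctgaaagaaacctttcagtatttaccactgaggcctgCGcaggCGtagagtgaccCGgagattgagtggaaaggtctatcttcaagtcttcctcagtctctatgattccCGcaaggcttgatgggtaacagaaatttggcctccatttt
Rhox5, chrX:37754408-37754607, plus strand, 4 CpG: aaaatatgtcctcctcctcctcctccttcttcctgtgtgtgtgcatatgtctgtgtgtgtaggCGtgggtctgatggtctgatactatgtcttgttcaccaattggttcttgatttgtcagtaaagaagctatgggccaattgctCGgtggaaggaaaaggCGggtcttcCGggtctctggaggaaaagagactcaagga
Rhox13, chrX:38120640-38120839, plus strand, 2 CpG: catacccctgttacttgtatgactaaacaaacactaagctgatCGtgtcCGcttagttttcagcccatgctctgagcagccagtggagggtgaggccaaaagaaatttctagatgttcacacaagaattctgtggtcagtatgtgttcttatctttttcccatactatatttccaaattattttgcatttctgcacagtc
Rhox10, chrX:38066275-38066474, plus strand, 7 CpG: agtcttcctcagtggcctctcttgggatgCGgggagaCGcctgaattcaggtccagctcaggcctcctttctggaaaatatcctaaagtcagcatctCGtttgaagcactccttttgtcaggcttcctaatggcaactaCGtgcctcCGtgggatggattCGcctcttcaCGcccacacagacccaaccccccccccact

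The median over 32851 windows of the table was 5 CpG sites in the same 200 bases. Tex14, Tdrkh, Rec8, Rpl10l and Rhox10 were above it, and Rhox5 and Rhox13 were below. Rhox10, with 7, held more than Rpl10l, with 6. Genes tested with exactly 1 window had a higher median, 19 CpG sites in a window of 300 bases that runs 50 bases past the start. On that scale Tex14 held 20, Tdrkh 25, Rec8 18 and Rpl10l 13. Rhox5 and Rhox13 held 5 each and Rhox10 held 9. Tex14 and Rec8 were thus near the median of the genes tested, Tdrkh was above it, and Rpl10l and the Rhox windows were below it. The motif TTCCCGCC or its reverse GGCGGGAA, which E2F6 can bind, was found in the 300-base window of Tex14 alone among the 7, starting at base -112 from the start site, and in 2.19% of all windows on either strand. The E-box CACGTG was in none of the 7 and in 7.15% of all windows. A comparison of promoters between the called genes and all genes was void, since only 41.5% of the genes tested, 52.8% of those higher and 38.9% of those lower had exactly 1 window.

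Imprinted genes, which are expressed from the allele of 1 parent through methylation inherited from the germ cells, changed one by one. Of 26 paternally expressed genes 5 were higher and 4 lower, with a median of 0.06, and of 24 maternally expressed genes 2 were higher and 4 lower, with a median of -0.11. These counts stand beside 10.8% higher and 10.1% lower over all genes. Plagl1, a zinc finger gene, was at -4.24 and -3.88 in J1, where 1 array was above background, and at 2.23 and 2.58 in the knockout, a difference of 6.46 (SE 0.20, limma adjusted p = 0.000188). The other 6 arrays were at 0.99 to 3.25. The size depended on the probe: the mean over its probes gave 3.27, and the difference over probes that passed the background flag on all 10 arrays was 0.21, which did not pass (limma adjusted p = 0.556). Peg13, a noncoding RNA, was at -4.20 and -6.16 in J1, again with 1 array above background, and at -0.75 and -0.81 in the knockout, with -0.99 to 0.13 on the other 6 arrays. On these probes J1 was the line that was low. Cdkn1c, a cell cycle inhibitor of the Kcnq1 domain, was at 4.51 and 4.61 in J1 and at 3.35 and 3.41 in the knockout, a fall of 1.18 (SE 0.08, limma adjusted p = 0.00114). Phlda2 and Ascl2, placental genes of the same domain of chromosome 7, fell by 1.03 and 1.09, and Osbpl5, also from there, rose by 0.97. Slc38a4, an amino acid transporter, fell by 1.04. H19, Igf2r, Meg3, Peg3 and Peg10 did not pass. Without either Dnmt3b-/- array 3 paternally expressed genes were higher and 1 lower, and with J1 replicate 1 or 2 left out 4 were higher and 2 or 1 lower.

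Enzymes that remove methylation were called in both directions. TET proteins oxidise methylcytosine, and base excision repair replaces the product. Of 21 genes, 4 were higher and 4 lower, with a median of -0.08, against 10.8% higher and 10.1% lower over all genes. Tet1, Tet2 and Tet3 differed by 0.04, -0.08 and -0.17 and did not pass. Idh2, which makes the TET cofactor 2-oxoglutarate, was at 4.17 and 4.29 in J1 and at 5.50 and 5.66 in the knockout, a rise of 1.35 (SE 0.09, limma adjusted p = 0.00112). Apex1, the abasic site nuclease, rose by 1.02 and Neil2, a DNA glycosylase, by 1.11, and both lie on chromosome 14. The list of methyl-CpG readers also takes in relatives by protein family, among them Mbd5, and binding to methylated CpG was not measured. Among its 10 genes, called readers below, 3 were higher and 1 lower. Mbd5 was not above background in J1 (-6.58 and -5.88) and was at -2.05 and -2.21 in the knockout, at least 4.04-fold higher (limma adjusted p = 0.000958), and Mbd2 fell by 0.40. Zbtb4 was called higher by 0.98 on its brightest probe, but the mean of its probes gave -0.52. With any 1 array left out 0 to 2 enzymes and 0 readers were lower. With slide as a block over 10 arrays 2 readers were higher and 3 lower, and Zbtb4 lost its call (limma adjusted p = 0.0583). With normexp its difference was 0.16, which did not pass. Over probes that passed the background flag on all 10 arrays 1 of 8 readers was higher and 2 lower.

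Interferon-inducible genes were mostly higher where they passed. Of 31 measured, 12 (38.7%) were higher and 1 lower, with a median of 0.50 (0.30 with normexp), against 10.8% higher among all genes. Gbp3, an interferon-induced GTPase, was at -1.32 and -1.18 in J1 and at 0.70 and 0.87 in the knockout, a rise of 2.04 (SE 0.24, limma adjusted p = 0.00412). Oasl2, of the antiviral OAS family, was at -2.77 and -2.45 in J1 and at -1.22 and -1.27 in the knockout and rose by 1.36 (SE 0.12, limma adjusted p = 0.00191). Irf9, part of the complex that activates such genes and encoded on chromosome 14, rose by 1.07, and the class I genes H2-K1 and H2-D1 rose by 0.52 and 0.50. Ifitm3, a membrane protein that restricts viral entry, went down by 0.96, from 3.81 and 3.68 to 2.80 and 2.78. The other 6 arrays spanned -4.63 to 3.15 for Gbp3, so J1 and the knockout lay inside the range of the series. The higher count was 4 with the 4 arrays alone, 7 with no filter on dim probes, 8 without either J1 array and 6 without either Dnmt3b-/- array.

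Markers of other differentiated cells gave smaller counts. Of 21 trophoblast genes 4 were higher and 2 lower, of 22 primitive endoderm genes 7 and 1, of 14 mesoderm and mesendoderm genes 4 and 1, of 14 neural genes 4 and 2, and of 30 keratin and epithelial junction genes 6 and 1. Over all genes 10.8% were higher and 10.1% lower, and none of these lower counts, of 1 or 2 genes, is read as a change of its list. The simple epithelial keratin Krt8 was at 5.28 and 5.29 in J1 and at 6.14 and 6.25 in the knockout, a rise of 0.91 (SE 0.11, limma adjusted p = 0.00449), and Cldn3, a tight junction protein, rose by 1.47. Gata3, a trophoblast factor, was at 0.06 and 0.09 in J1 and at -1.24 and -0.81 in the knockout and fell by 1.10 (SE 0.16, limma adjusted p = 0.00813). Cubn, an endocytic receptor of visceral endoderm, rose by 1.21, Ncam1, a neural adhesion molecule, by 1.503, and Gsc, the homeobox factor goosecoid, was at least 2.49-fold higher. With normexp the differences of Cubn and Gsc became 0.24 and 0.32, and neither passed (limma adjusted p = 0.0865 and 0.0691). Both also lost their calls with the 4 arrays alone (limma adjusted p = 0.0903 and 0.0538). Sox7, an endoderm factor encoded on chromosome 14, fell by 1.17. Without Dnmt3b-/- replicate 2, 2 primitive endoderm, 1 neural and 3 keratin or junction genes were higher, and without Dnmt3b-/- replicate 1, 3, 2 and 3, with 2 trophoblast genes. The summed linear level was 190 and 180 in J1 and 283 and 267 in the knockout for trophoblast genes, 283 and 262 against 318 and 328 for primitive endoderm genes, 35.0 and 29.4 against 34.7 and 32.5 for mesoderm genes, and 31.7 and 29.0 against 33.6 and 32.7 for neural genes. The keratins Krt18 and Krt8, which rose by 0.68 and 0.91, were the brightest trophoblast members and weighed most in that sum. Gata3 and Ascl2 fell, and Cdx2, Hand1 and Tfap2c did not pass. Sparc, which did not pass (0.22), weighed most in the primitive endoderm sum.

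Differences in the same direction were gathered on parts of chromosomes 14 and 6. Of 449 genes tested between 50 and 80 Mb of chromosome 14 (mm9), 200 (44.54%) were higher and 16 lower, with a median of 0.54 (0.50 on slide 1 and 0.61 on slide 2). Of 197 genes between 70 and 90 Mb of chromosome 6, 5 were higher and 85 (43.15%) lower, with a median of -0.50 (-0.51 and -0.50 within slides). These boundaries were chosen after the values were seen. Set against the mean of all 10 arrays, the chromosome 14 stretch was at -0.51 and -0.47 on the J1 arrays, 0.13 and 0.10 on the Dnmt3b-/- arrays and -0.01 to 0.14 on the other 6. There J1 was the line that stood low. The chromosome 6 stretch was at 0.05 and 0.09 in J1, -0.37 and -0.34 in the knockout and 0.03 to 0.14 elsewhere, and there the knockout stood low. Ephx2, Nefm, Tdh, Rec8, Piwil2, Irf9, Apex1 and Neil2, which were higher, and Sox7, which was lower, lie in the first, and Tcf7l1 in the second. At the start of chromosome 14, 17 of 44 genes up to 10 Mb were lower (median -0.47), and from 90 to 130 Mb, where Zic2 and Zic5 lie, 35 of 102 (median -0.45). Outside the stretches at 50 to 80 Mb of chromosome 14 and 70 to 90 Mb of chromosome 6, 10.17% of genes were higher and 9.98% lower of 23165, and the germline counts became 13 and 10 of 60 and the naive counts 14 and 1 of 27. The TET and base excision repair counts became 2 higher and 4 lower of 18, and primitive endoderm 7 and 0 of 20. DNA copy number was not measured, and its part in these differences was not tested.

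**Figure D5:**
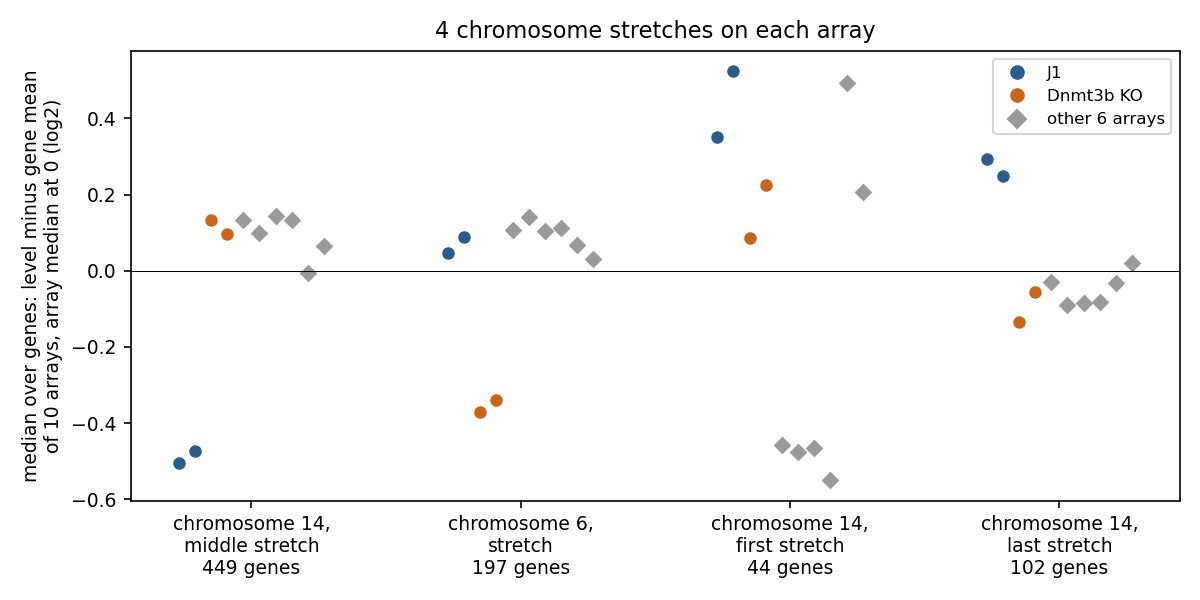
Median over the genes of 4 chromosome stretches (x axis) of the level minus the gene's mean over 10 arrays, with the median of the array at 0 (log2 units, y axis), for each J1 array (blue), Dnmt3b-/- array (orange) and other array (grey diamonds). In the middle stretch of chromosome 14 the J1 arrays lie at -0.51 and -0.47, below all others, and in the chromosome 6 stretch the Dnmt3b-/- arrays lie at -0.37 and -0.34, below all others.

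Y-linked genes did not separate the lines. Of 6 measured, 0 passed the test. Eif2s3y, a translation factor, was at 3.63 and 3.95 in J1 and at 3.56 and 3.80 in the knockout, and Ddx3y, an RNA helicase, at 1.63 and 1.63 against 1.39 and 1.47. Both lines therefore expressed them, and 2 of the 6, Usp9y and Zfy1, were above background on no array of either line. Of 16 housekeeping genes, 0 were higher and 1 lower, with a median of -0.06.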

How the data were processed

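Total RNA was amplified, labelled with Cy3 and hybridised to 10 Agilent arrays of 1 colour, per the labels' protocols. The scanner files the authors deposited hold 1 intensity per spot, made by Feature Extraction 10.7.3.1 with background trends removed and probes placed on mm9, per the file headers. The deposited value table holds log2 values (median 4.243 on every array, at most 0.246 from quantile-normalized intensities). The authors' table was an alternative, and its exact scaling is unknown. The submitters' processing notes name limma without a version.

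After removal of control and outlier spots, 55681 probes were scaled by subtracting the array's 75th percentile from log2 intensity. A probe stayed if some group had it well above background on all its arrays (33112 probes), and each gene was represented by its probe of highest mean (6141 of 23811 genes had several). Symbols were updated through RefSeq accessions (20869 of 22232 matched). In 28 of 1463 called genes with several probes, another probe was called the opposite way.

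All 10 arrays entered 1 limma fit (limma 3.58.1, R 4.3.3, reading by data.table in version 1.17.8) with no covariates and 4 residual degrees of freedom, and the contrast Dnmt3b-/- minus J1 was called at a Benjamini-Hochberg adjusted p under 0.05, two-sided. The groups with 1 array, Dnmt1-/- and the triple knockout, add nothing to the estimate of spread. The fit was tested on simulated data. Lower bounds set the brighter line's mean against a dim mean that takes, on each array, the larger of the probe's signal and the lowest signal well above background. Replicate 1 of both lines lay on slide 1 and replicate 2 on slide 2, in the same scan pass on slide 1 and in different passes on slide 2. Deviations of same-numbered arrays from their group means correlated at 0.507 between J1 and Dnmt3b-/- over 18248 genes. With the Prdm14-expressing arrays, which lay on slides 3 and 4, they correlated at 0.344 for J1 and 0.301 for Dnmt3b-/-. A trend by replicate number was thus present without a shared slide, and the correlation alone does not show pairing by slide. Named genes were the methylation machinery, the 12 largest rises and falls above background on all 4 arrays, the 10 largest lower bounds each way, up to 4 members of each list, and the Y-linked genes with Hprt. The comparison and the 36 gene lists were chosen with earlier results of these data known. Other members named beside a list's count were chosen after their values were seen. Settings tried were other background corrections, scalings, probe filters and probe averages, slide or replicate as a block, fewer arrays and each array left out. A few genes that these rules name are not reported here.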

Additional observations from a re-analysis of the deposited data

How the results depend on the processing

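The 4973 calls became 1867 with the 4 arrays alone, 2977 with no filter on dim probes, 1435 when a 2-fold change was also asked for and 2425 to 3357 with 1 array left out. With the replicate number as a block over the 4 arrays they became 0 (1 residual degree of freedom), and Dnmt3b, with its difference still -5.93, had a limma adjusted p of 0.0608. The other settings stayed within 1.5 times: 3749 without the Prdm14-expressing line, 6314 with slide as a block over 10 arrays, 5206 with normexp, 5044 with quantile normalization, 3664 with median centring, 5020 with the authors' table, 5324 with probes above background on all 10 arrays, 5010 with the mean of probes and, chosen after seeing the data, 4667 without the genes of the 2 stretches. Dnmt3b ran from -5.96 to -5.61 in all. Of 155 named genes that passed, 97 kept call and direction in every setting run other than the 4-array block. The sign turned with the mean over probes for Zbtb4 (-0.52), Nsd1 (-0.0303), Uhrf1 (-0.0368) and Usp7 (-0.47), and with normexp for Fabp7 (-0.0384), Hoxc9 (-0.048) and Usp9y (-0.20). With 1 array left out, genes that did not pass crossed 0: Dnmt1 ran from -0.0783 to 0.249, Hells from -0.0215 to 0.0367, Setd2 from -0.0556 to 0.132, Eif2s3y from -0.273 to 0.0499 and Usp9y from -0.29 to 0.736. The cause of these turns was not tested. Fabp7 and Hoxc9 were above background on 1 and 0 of the 4 arrays, and dim genes of this kind have no reliable size.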

Other observations

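Genes of glycolysis and hypoxia went in both directions. Of 24 measured, 8 were higher and 3 lower, with a median of 0.11. Over all genes 10.8% were higher and 10.1% lower, which is also the background for the other counts here. The summed linear level of the list was 4630 and 4110 in J1 and 4770 and 4180 in the knockout. Bnip3, a mitophagy receptor, was at 4.42 and 4.23 in J1 and at 5.47 and 5.21 in Dnmt3b-/- cells, a rise of 1.02 (SE 0.13, limma adjusted p = 0.00511), Aldoc, an aldolase, rose by 0.98 and Pdk1, which holds pyruvate out of mitochondria, by 0.90. Car9, a carbonic anhydrase induced by hypoxia, was above background in J1 alone and at least 1.98-fold lower in the knockout. Of 28 p53 and stress genes 7 were higher and 4 lower, with a median of -0.01. Fas, a death receptor, was at least 2.77-fold higher, Atf3 rose by 1.11 and Gdf15 by 0.92, while Atf4, the factor of the amino acid response, fell by 0.85 from 6.60 and 6.54 to 5.64 and 5.80. Gdf15 lost its call with normexp (0.44, limma adjusted p = 0.0609) and with the 4 arrays alone (limma adjusted p = 0.0887). Of 24 Polycomb genes 1 was higher and 4 lower. Phf19, which guides the PRC2 complex, was at 0.47 and 0.51 in J1 and at -0.64 and -0.74 in the knockout and fell by 1.18 (SE 0.08, limma adjusted p = 0.00106). Of 26 genes of H3K9 methylation and heterochromatin 3 were higher and 2 lower, and Cbx1, which encodes HP1 beta, fell by 0.67. Without Dnmt3b-/- replicate 2 the p53 counts were 3 and 2, and 1 heterochromatin gene was higher. Without Dnmt3b-/- replicate 1, 5 glycolysis genes were higher, and with any 1 array left out 0 Polycomb genes were higher and 1 was lower.

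Signalling lists other than those of NODAL and WNT were mixed. Beside the counts here, 10.8% of all genes were called higher and 10.1% lower. Of 15 BMP and Id genes 4 were higher and 3 lower. Bmp2, above background on 1 J1 array, differed by 1.92 and Id4 rose by 1.48, while Id2, an inhibitor of bHLH factors, went down from 4.05 and 4.02 to 2.99 and 3.00. Of 18 LIF and STAT3 genes 4 were higher and 4 lower, and Pramel6, a gene of naive cells, was above background in J1 alone and at least 2.02-fold lower. Of 20 FGF and ERK feedback genes 4 were higher and 2 lower, with Fgf15 rising by 1.74, and of 24 immediate early genes 4 and 3. Of 19 genes of the 2-cell stage 1 was higher and 2 lower, of 18 Hox genes 3 and 0, of 7 clustered protocadherins 1 and 0, of 22 sterol synthesis genes 2 and 0, of 12 purine salvage genes 3 and 0, and of 23 metallothionein and glutathione S-transferase genes 3 and 4. In the last of these lists Mt4, a metallothionein of squamous epithelium, was at -1.38 and -1.58 in J1 and at -3.39 and -3.90 in the knockout, a fall of 2.16 (SE 0.19, limma adjusted p = 0.00201). With 1 array left out, 1 to 3 LIF and STAT3, 2 to 4 FGF, 1 to 2 immediate early and 1 to 2 metallothionein and transferase genes were higher.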
